A study of Mus musculus with 6 samples.

Results

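The STAT transcription factors and the SOCS feedback inhibitors of the JAK-STAT pathway were examined in mouse macrophages with and without XBP1. The 9 genes were taken from the deposited table by symbol, out of 54532 rows: the STAT genes Stat2, Stat3, Stat4, Stat5a, Stat5b and Stat6, and the inhibitor genes Socs1, Socs3 and Cish. All 9 passed the filter on low counts, as did 14333 genes in all. The cells were bone marrow-derived macrophages (BMDMs) of the C57BL/6 background, from mice aged 32 to 34 weeks. The tested cells had the genotype Xbp1ΔMf (XKO, n = 3) and their controls the genotype Xbp1FL/FL (XWT, n = 3). XBP1 acts in the unfolded protein response and becomes an active transcription factor once IRE1 has spliced its mRNA. Cells of both genotypes had been primed with LPS, a bacterial Toll-like receptor ligand, followed by 48 h in wild-type primary hepatocyte conditioned medium, so there was no unprimed or unconditioned group. The sources used here do not name the Cre driver, and leave unstated whether animals were pooled and whether each sample was a separate animal. The spread that the p-values rest on may therefore be technical.

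Cytokines and interferons bind receptors that carry JAK kinases. The kinases phosphorylate STAT proteins, which pair up, enter the nucleus and bind target genes, most of them at a GAS element. STAT2 joins IRF9 in a complex that type I interferons activate, which binds another element, the ISRE. STAT3 carries signals of IL-6 and IL-10, STAT4 of IL-12, STAT5A and STAT5B of GM-CSF and related cytokines, and STAT6 of IL-4 and IL-13. SOCS1, SOCS3 and CISH are induced by these signals and inhibit them: SOCS1 and SOCS3 bind receptors or JAKs and block kinase activity, and CISH binds phosphorylated receptor sites that STAT5 uses. In macrophages SOCS3 is known for restraining IL-6 signalling through the receptor chain gp130. STAT proteins are switched on by phosphorylation, so transcript levels do not measure their activity.

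The targeted gene was lower in the XKO libraries. Xbp1 averaged 77.5 ± 1.58 counts per 1e6 library counts (CPM) in XKO and 149 ± 15 CPM in XWT cells (SD, n = 3 each), a log2 fold change of -0.94 (adjusted p = 1.93e-06, edgeR's quasi-likelihood test). The counts cover the whole gene, deleted part or not, so they check the labels only in part. Library totals were 30144453, 29965384 and 30184033 counts in XKO 1 to 3 and 28354866, 30707075 and 30891729 counts in XWT 1 to 3. The XWT libraries were spread more widely than the XKO libraries. On the first principal component, which held 61.4% of the variance, the XKO libraries lay between -33.8 and -29.2, and XWT 1, 2 and 3 at 36.9, 38.6 and 18.2. On this component XWT 3 stood apart from XWT 1 and XWT 2. By pairs of libraries, however, all XWT libraries differed by similar amounts. Chi-square per gene was 20.6 for XWT 1 and 2, 23.6 for XWT 1 and 3, and 21 for XWT 2 and 3, against 2.91 to 4.82 for pairs of XKO libraries. The test used an estimate of spread shared by both groups. Of 8 macrophage markers, all were tested and 1, Lyz2, fell in XKO cells. Lyz2 averaged 14260 CPM in XKO and 31120 CPM in XWT cells (log2 fold change -1.13, adjusted p = 1.06e-06, edgeR). Adgre1 averaged 5746 CPM in XKO and 6609 CPM in XWT cells and did not pass (adjusted p = 0.0677, edgeR). Of 13 fibroblast and stroma markers, 10 were tested and 9 fell. Fap did not pass (log2 fold change -0.23, adjusted p = 0.734, edgeR), and Lum, Thy1 and Tagln were under the count filter. The summed level of the 13 was 64.7 to 78.6 CPM in XKO and 668 to 771 CPM in XWT libraries. Of 12 neutrophil markers, 8 were tested and 7 rose; their sum was 61.6 to 65.3 CPM in XKO and 30.8 to 39.9 CPM in XWT libraries, with Ly6g at 0 in all 6. Among 8 hepatocyte markers, 7, with Alb, also had 0 counts in all 6 libraries. Apoa2, the tested one, had 10, 9 and 9 counts in XKO and 8, 17 and 21 counts in XWT libraries (adjusted p = 0.249, edgeR). Among 11 T and NK cell markers, 5, with Cd3e, had 0 counts in all 6 libraries, and Cd4, the 1 tested, fell. B cell markers (1 of 5 tested) and dendritic cell markers (3 of 6 tested) had 0 that rose or fell.

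The transcripts differed widely in level per length. By the authors' FPKM values (fragment counts scaled for gene length and library depth), averaged over the 6 libraries, Stat6 was the most abundant of the 9 genes at 65.5 FPKM, above 95.2% of tested genes. Stat2 followed at 35.4 FPKM, Stat3 at 19.2, Stat5b at 16.7, Socs3 at 7.47 and Stat5a at 4.86 FPKM. Socs1 was low at 0.823 FPKM, and Stat4 and Cish were near the bottom of the tested genes at 0.157 and 0.116 FPKM. Only 5.62% of tested genes had a lower level than Stat4 and 3.54% a lower level than Cish. Ranges over the 6 libraries separated most neighbours in this order. The exceptions were Stat3 and Stat5b, at 17.7 to 20.95 and 15.6 to 18.9 FPKM, and Stat4 and Cish, at 0.108 to 0.218 and 0.0694 to 0.148 FPKM. The 6 STAT genes summed to 141, 138 and 142 FPKM in XKO 1 to 3 and to 148, 146 and 137 FPKM in XWT 1 to 3, and the groups overlapped. The 3 inhibitor genes summed to 9.21, 9.92 and 10.2 FPKM in XKO 1 to 3 and to 6.75, 7.52 and 6.82 FPKM in XWT 1 to 3, without overlap; most of each sum was Socs3.

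**Figure D1:**
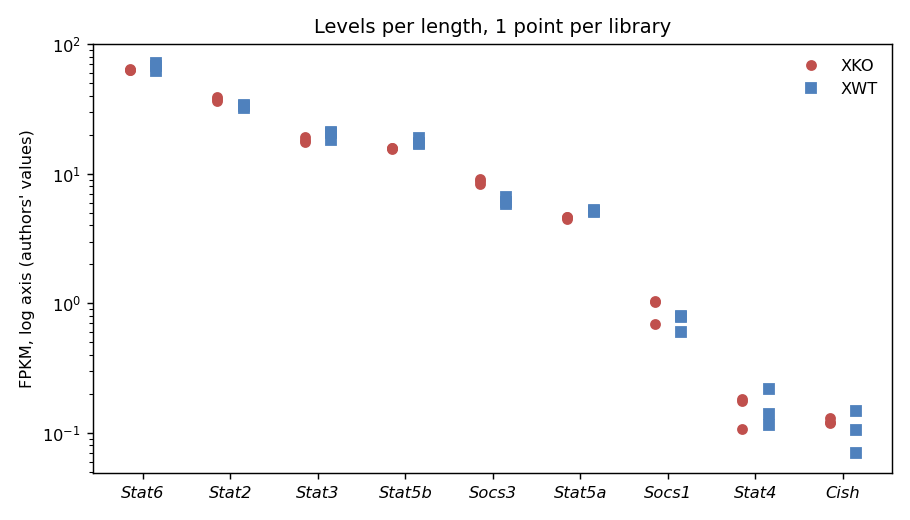
The authors' FPKM values of the 9 genes on a log axis, ordered by their mean over all libraries, with 1 point per library (circles XKO, squares XWT, n = 3 each). Levels run from 65.5 FPKM for Stat6 down to 0.116 FPKM for Cish, and Socs3 is the highest of the inhibitor genes in both genotypes.

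The start regions of the 3 inhibitor genes and of Stat2 are shown because STAT-binding letters lie in them, and because these genes include the one that was called and the STAT gene nearest to a call. RefSeq windows (assembly GRCm38.p6, 250 bases before to 50 after each start, 5′ to 3′ on the gene's strand) were searched on both strands for the GAS letters TTCNNNGAA, the spaced variant TTCNNNNGAA favoured by STAT6, the ISRE core GAAANNGAAA and the XBP1 core ACGTG. Capitals mark every match of these motifs. The windows are chr11:117969317-117969616 on the minus strand for Socs3, chr16:10785487-10785786 on the minus strand for Socs1, chr9:107296409-107296708 on the plus strand for Cish and chr10:128270248-128270547 on the plus strand for Stat2.
Socs3: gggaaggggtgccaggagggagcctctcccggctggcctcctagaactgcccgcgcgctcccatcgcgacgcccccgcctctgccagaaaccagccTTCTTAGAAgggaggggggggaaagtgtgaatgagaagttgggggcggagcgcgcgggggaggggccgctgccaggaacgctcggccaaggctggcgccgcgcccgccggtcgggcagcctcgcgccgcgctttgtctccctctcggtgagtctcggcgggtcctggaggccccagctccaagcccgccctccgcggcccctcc
Socs1: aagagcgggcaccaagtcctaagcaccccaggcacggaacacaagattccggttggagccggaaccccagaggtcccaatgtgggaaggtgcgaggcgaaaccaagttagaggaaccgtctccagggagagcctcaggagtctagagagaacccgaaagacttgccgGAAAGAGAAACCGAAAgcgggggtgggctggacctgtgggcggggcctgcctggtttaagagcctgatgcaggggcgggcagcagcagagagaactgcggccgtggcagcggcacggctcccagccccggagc
Cish: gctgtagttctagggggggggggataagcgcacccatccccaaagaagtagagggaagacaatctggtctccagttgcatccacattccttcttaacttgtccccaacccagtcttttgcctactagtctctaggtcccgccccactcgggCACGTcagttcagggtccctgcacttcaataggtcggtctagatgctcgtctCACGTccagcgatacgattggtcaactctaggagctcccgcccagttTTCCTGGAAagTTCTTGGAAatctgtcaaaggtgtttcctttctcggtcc
Stat2: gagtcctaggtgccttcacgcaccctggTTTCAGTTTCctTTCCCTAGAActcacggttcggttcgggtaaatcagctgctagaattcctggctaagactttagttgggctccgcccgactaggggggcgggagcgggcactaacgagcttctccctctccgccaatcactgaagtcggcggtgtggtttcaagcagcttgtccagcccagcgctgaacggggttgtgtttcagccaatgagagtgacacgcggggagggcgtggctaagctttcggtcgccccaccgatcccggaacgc

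The Socs3 window held 1 GAS match, TTCTTAGAA, at chr11:117969512-117969520, which is 154 bases before the RefSeq start and 334 bases upstream of the nearest coding transcript start in the GENCODE M21 annotation. Socs1 held 2 overlapping ISRE matches, GAAAGAGAAA and GAAACCGAAA, 83 and 77 bases before its start. Cish held a pair of GAS matches, TTCCTGGAA and TTCTTGGAA, which begin at its RefSeq start and 11 bases after it. The pair lies 51 and 40 bases upstream of its nearest coding transcript start. Cish also held 2 XBP1 core matches. Stat2, itself an interferon-response gene, held an ISRE match, TTTCAGTTTC, and a spaced STAT6-type match, TTCCCTAGAA, 222 and 210 bases before its start. The Socs3 and Stat2 windows ended upstream of the nearest coding transcript starts, at chr11:117969186 and chr10:128270576. The bases next to those starts were therefore not searched. The second Stat4 window, not printed, held an ISRE match, GAAAGTGAAA, 97 bases before its start. The 9 genes had 12 windows, since Stat4, Stat5a and Stat5b have 2 each. Of these, 2 held GAS letters, 3 the ISRE core, 1 the STAT6-type letters and 2 the XBP1 core. Of all 32851 windows of this length, 8.3% held GAS letters, 3.44% the ISRE core, 6.95% the STAT6-type letters and 19.6% the XBP1 core. These matches are letters only, and no binding was measured here.

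Among the inhibitor genes, Socs3 rose in XKO cells. Socs3 (ENSMUSG00000053113, chr11:117966079-117970047, minus strand) had 757, 783 and 809 counts in XKO 1 to 3 and 458, 567 and 553 counts in XWT 1 to 3. Scaled for library size and composition, these were 24.4, 25.5 and 26.4 CPM in XKO and 17.0, 19.1 and 17.7 CPM in XWT libraries. Every XKO library lay above every XWT library. The means were 25.4 ± 1.01 CPM in XKO and 17.9 ± 1.07 CPM in XWT cells (SD, n = 3 each), 1.42-fold higher in XKO. The log2 fold change was 0.50 (SE 0.08, 95% interval 0.32 to 0.69), with adjusted p = 0.00151 by edgeR's quasi-likelihood test over all tested genes. By p-value Socs3 stood 393rd of 14333 tested genes. In these bulk libraries, more RNA per cell and more cells that carry a transcript cannot be told apart. The stromal and neutrophil marker sums given above moved between the same groups, and their part in this difference was not tested.

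Socs1 and Cish gave few counts, and neither passed the test. Socs1 (ENSMUSG00000038037, chr16:10782240-10785536, minus strand), the broad inhibitor of interferon signalling, had 63, 93 and 91 counts in XKO and 63, 68 and 55 counts in XWT libraries. XKO 1, at 2.03 CPM, lay within the XWT range of 1.76 to 2.34 CPM, while XKO 2 and XKO 3, at 3.02 and 2.97 CPM, lay above it. For Socs1 the log2 fold change was 0.33, with a 95% interval of -0.15 to 0.81 (adjusted p = 0.34, edgeR). Cish (ENSMUSG00000032578, chr9:107296026-107302784, plus strand), a STAT5 target that restrains STAT5, had 24, 26 and 24 counts in XKO and 12, 20 and 30 counts in XWT libraries. Its 3 XKO values, 0.773 to 0.845 CPM, all fell within the XWT range of 0.445 to 0.960 CPM. For Cish it was 0.19, with a 95% interval of -0.55 to 0.94 (adjusted p = 0.74, edgeR). The annotation places antisense exons of Gm17041 and Gm17040 over Cish, both with 0 counts in all libraries.

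**Figure D2:**
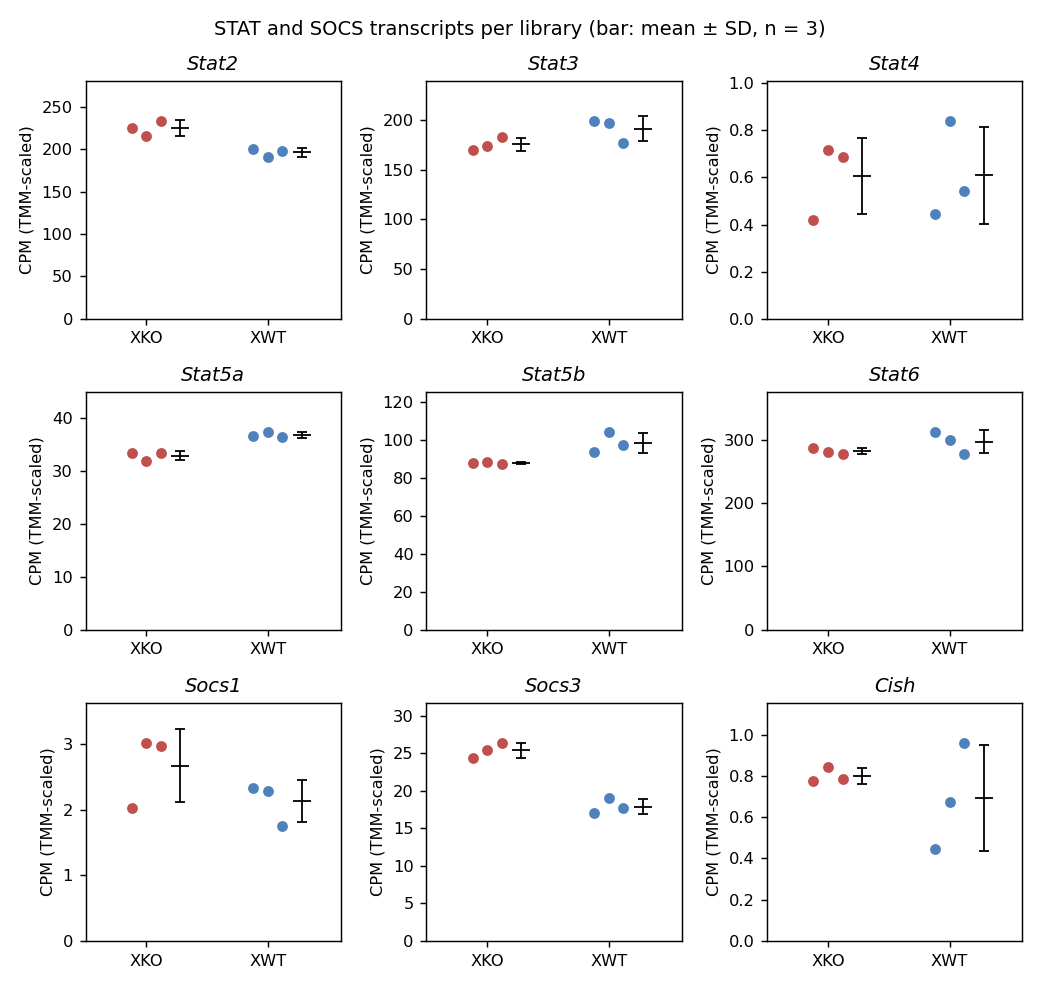
Level of each gene in CPM scaled by TMM factors, with every vertical axis starting at 0. Circles are libraries, and the bar beside them is the mean ± SD (n = 3; XKO left, XWT right). The groups stand clear of each other for Stat2, Stat5a, Stat5b and Socs3 and overlap for the other 5 genes.

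Stat2 was the STAT gene with the highest log2 fold change in XKO cells, at the edge of the test's threshold. Stat2 (ENSMUSG00000040033, chr10:128270559-128292849, plus strand), whose product is the transactivating partner in the interferon-induced complex, had 6991, 6628 and 7161 counts in XKO and 5395, 5669 and 6175 counts in XWT libraries. The scaled levels were 225, 215 and 234 CPM in XKO 1 to 3 and 200, 191 and 198 CPM in XWT 1 to 3, so the groups did not overlap. The log2 fold change was 0.20 (SE 0.06, 95% interval 0.06 to 0.33), a 1.15-fold difference, with adjusted p = 0.0534 by edgeR, which missed the threshold of 0.05. Stat2 passed in 7 of 16 alternative analyses, where its adjusted p ran from 0.00562 to 0.235. It passed with XWT 3 left out, where the log2 fold change was 0.20 (adjusted p = 0.0234, edgeR). With any other single library left out Stat2 did not pass (adjusted p from 0.0592 to 0.235, edgeR). In the authors' deposited table its log2 fold change was 0.19 with adjusted p = 0.0366. DESeq2 gave nearly the same values here (0.19, adjusted p = 0.0364), so the deposited table is not separate support.

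Stat3 (ENSMUSG00000004040, chr11:100885098-100939540, minus strand) had 5265, 5362 and 5599 counts in XKO and 5376, 5857 and 5518 counts in XWT libraries. These scaled to 170, 174 and 183 CPM in XKO 1 to 3 and to 199, 197 and 177 CPM in XWT 1 to 3. XKO 3 lay above XWT 3, so the groups overlapped. The log2 fold change of Stat3 was -0.12 (SE 0.07, 95% interval -0.27 to 0.03), with adjusted p = 0.246 by edgeR. The call turned on XWT 3: without that library the log2 fold change was -0.18 with adjusted p = 0.0338 by edgeR. With each library's trends of log2 CPM on gene length and GC content removed, the value was 0.04, of the opposite sign. Stat3 therefore had no direction that held under every setting.

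Stat5a and Stat5b, closely related factors of the GM-CSF and growth hormone receptors that lie side by side on chromosome 11, had similar values. Stat5a (ENSMUSG00000004043, chr11:100859351-100885169, plus strand) stood at 33.3, 31.9 and 33.3 CPM in XKO 1 to 3 and at 36.5, 37.3 and 36.3 CPM in XWT 1 to 3. Stat5b (ENSMUSG00000020919, chr11:100780731-100850724, minus strand) stood at 87.9, 88.1 and 87.1 CPM in XKO and at 93.7, 104 and 97.1 CPM in XWT libraries. For both genes every XKO library lay below every XWT library. The log2 fold change was -0.16 for Stat5a (95% interval -0.31 to -0.01, adjusted p = 0.139, edgeR) and -0.16 for Stat5b (95% interval -0.30 to -0.03, adjusted p = 0.104, edgeR), so neither passed. With length and GC trends removed the value was 0.02 for Stat5a and -0.03 for Stat5b (adjusted p = 0.774, edgeR, for Stat5b). Of the 75-base windows of their exons, 5.12% in Stat5a and 6.99% in Stat5b had the same letters in both genes, so some reads could have been assigned to either. Stat5a also shares 72 exonic bases with Stat3 on the opposite strand, and no source states whether counting used strand.

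The most abundant of the set, the IL-4 and IL-13 factor Stat6, did not pass the test. Stat6 (ENSMUSG00000002147, chr10:127642986-127660957, plus strand) stood at 287, 281 and 278 CPM in XKO 1 to 3 and at 312, 300.2 and 277 CPM in XWT 1 to 3. All 3 XKO values fell within the XWT range. For Stat6 the log2 fold change was -0.07 (95% interval -0.22 to 0.07, adjusted p = 0.473, edgeR), and 0.02 with length and GC trends removed. Stat4 (ENSMUSG00000062939, chr1:51987148-52107189, plus strand), the IL-12 factor of T and NK cells, had 13, 22 and 21 counts in XKO and 12, 25 and 17 counts in XWT libraries. The groups overlapped, with a log2 fold change of -0.01 and a 95% interval of -0.84 to 0.81 (adjusted p = 0.984, edgeR). Of the Stat4 exon windows, 19.5% are shared with Gm28177, which overlaps it on the same strand and had 3, 1 and 2 counts in XKO and 1, 10 and 1 counts in XWT libraries.

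Counted together, 1 of the 9 genes rose and 0 fell by edgeR at adjusted p under 0.05. Of all 14333 tested genes, 860 rose, which is 6% of them, and 1145 fell, which is 7.99%; 2005, or 14%, changed in either direction. At an unadjusted p under 0.05, 2 of the 9 were higher (Stat2 and Socs3) and 2 lower (Stat5a and Stat5b). DESeq2 and limma-voom each called 2 higher and 0 lower. Non-overlapping groups were seen for 4 of the 9 genes and for 36.2% of all tested genes, so this share was close to the background. The median log2 fold change was -0.01 over the 9 genes and 0.00 over all tested genes. The 6 STAT genes had a median of -0.10 (range -0.16 to 0.20) and the 3 inhibitor genes a median of 0.33 (range 0.19 to 0.50). Among all calls, 42.9% were higher in XKO; this share was 60.7% (1158 higher, 749 lower) when libraries were scaled by size alone and 58.5% (1480 higher, 1052 lower) with length and GC trends removed.

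**Figure D3:**
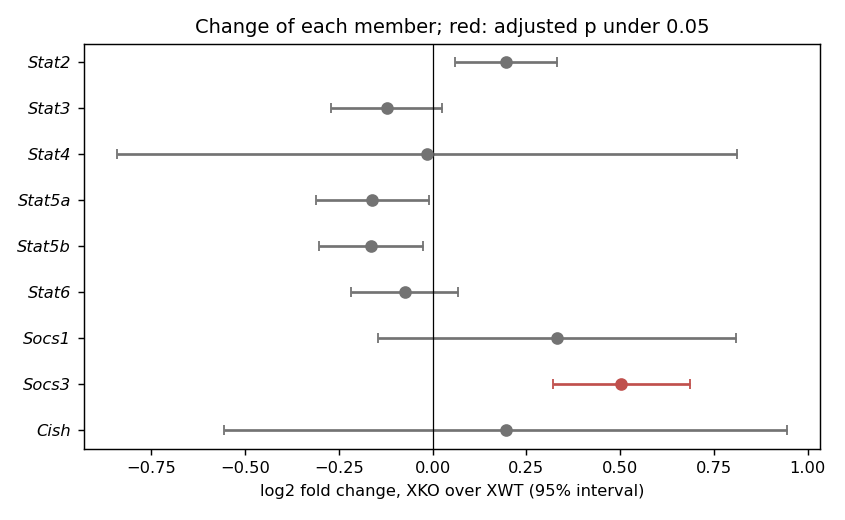
Log2 fold change, XKO over XWT, with its 95% interval from edgeR's quasi-likelihood fit (n = 3 each); red marks adjusted p under 0.05. The interval is narrow for the abundant STAT genes and wide for Stat4 and Cish, and the one for Socs3 runs from 0.32 to 0.69.

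**Figure D4:**
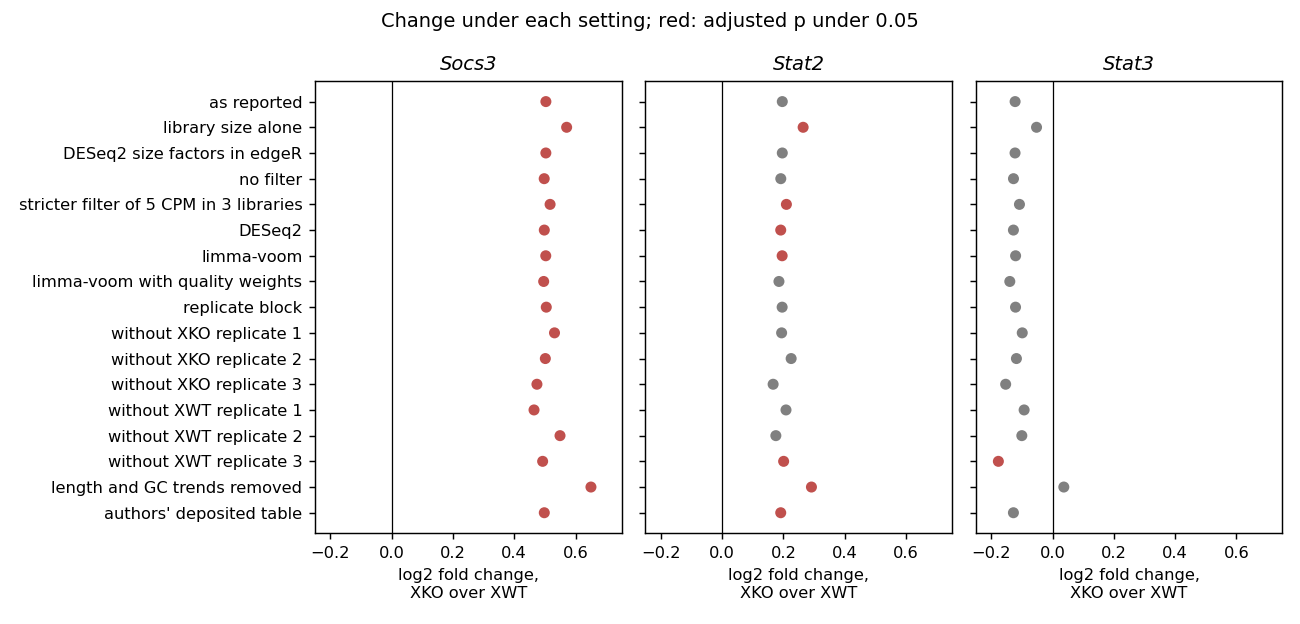
Log2 fold change of Socs3, Stat2 and Stat3 (horizontal axis) under each processing setting (rows), red where adjusted p was under 0.05. Socs3 passes in every row, Stat2 in some, and Stat3 only with XWT 3 left out, while its sign turns with length and GC trends removed.

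Among tested genes with an established symbol (no Gm number, Rik or pseudogene name), the 3 whose log2 CPM followed Socs3 most closely were taken. They were Atp2a3, a calcium pump of the endoplasmic reticulum, Ptger2, a prostaglandin E2 receptor, and Atf1, a CREB-family factor. Pearson's r over the 6 libraries was 0.997 for Atp2a3, 0.993 for Ptger2 and 0.991 for Atf1. These values are given as a description, since 334 genes with an established symbol had an r over 0.9 and all share the difference between the groups. Atp2a3 stood at 22.1, 22.4 and 23.4 CPM in XKO 1 to 3 and at 12.7, 14.5 and 13.5 CPM in XWT 1 to 3.

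The rest of the pathway was read through lists of ligands, receptors, kinases, inhibitors and targets. For comparison, 6% of all tested genes rose and 7.99% fell. The lists were chosen with earlier results known, and some genes, such as Usp18, Pim1 and Il4ra, are in more than 1 list. Among the ligands, 9 of 23 genes were tested, 0 rose and 2 fell. Lif, a ligand that signals through gp130 to STAT3, had 3, 3 and 2 counts in XKO and 28, 15 and 19 counts in XWT libraries. The summed ratio of Lif, XKO over XWT, was 0.123 with a 95% counting interval of 0.0507 to 0.257. By edgeR's fit, which includes the spread between libraries, its log2 fold change was -2.98 (95% interval -4.12 to -1.84, adjusted p = 0.00224). Ebi3, a subunit of IL-27 and IL-35, averaged 48.7 ± 2.11 CPM in XKO and 63.0 ± 9.76 CPM in XWT cells (SD, n = 3 each; adjusted p = 0.0251, edgeR). The Ebi3 call was lost without XKO 1, XKO 2, XKO 3, XWT 1 or XWT 2, where the list had 1 lower gene and adjusted p for Ebi3 ran from 0.0771 to 0.123, and with length and GC trends removed (0.108). No ligand was higher at an unadjusted p under 0.05 or by DESeq2. Il6 was under the count filter.

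Of 30 receptor genes, 24 were tested; 3 rose and 5 fell. Osmr, the receptor chain for oncostatin M, had 2, 6 and 3 counts in XKO and 36, 32 and 30 counts in XWT libraries. The summed ratio of Osmr was 0.107 (95% counting interval 0.0516 to 0.199). By edgeR's fit its log2 fold change was -3.19 (95% interval -4.16 to -2.22, adjusted p = 0.000368). Lif and Osmr are also expressed by stromal cells, and most tested stromal markers were lower in the same libraries. The part of those cells in these values was not tested. Il7r, the IL-7 receptor chain, stood at 109, 112 and 104 CPM in XKO 1 to 3 and at 83.4, 63.5 and 79.4 CPM in XWT 1 to 3, a log2 fold change of 0.52 (adjusted p = 0.00185, edgeR). The groups did not overlap for Il7r. The other called receptors, named after their values were seen, were Csf2ra and Csf2rb, the GM-CSF receptor chains, which rose, and Ifngr1, Il10ra, Il10rb and Il4ra, which fell. Il4ra, the chain that feeds STAT6, averaged 147 ± 2.11 CPM in XKO and 182 ± 12.3 CPM in XWT cells (SD, n = 3 each; adjusted p = 0.00812, edgeR). Its call was lost without XKO 1 or XKO 2 (adjusted p = 0.0536 and 0.068, edgeR) and with length and GC trends removed (0.171). Csf2rb has a near-identical paralog, Csf2rb2, so its counts are uncertain. Without XKO 1, XKO 2, XKO 3 or XWT 2 only 1 receptor rose, and without XKO 1 or XKO 2 only 1 fell; the count that fell was 2 without XKO 3 and 3 without XWT 1 or XWT 2.

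Of the 4 JAK kinases, 1 rose and 0 fell. Jak2, the kinase of the GM-CSF receptor, averaged 87.5 ± 2.98 CPM in XKO and 74.2 ± 5.88 CPM in XWT cells (SD, n = 3 each), a log2 fold change of 0.24 (adjusted p = 0.0427, edgeR). That call was lost without XKO 1, XKO 2, XKO 3, XWT 1 or XWT 2, where adjusted p ran from 0.0564 to 0.191. Jak1, Jak3 and Tyk2 had log2 fold changes of -0.07, -0.08 and -0.02. None of the 4 kinases was lower at an unadjusted p under 0.05 or by DESeq2.

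Of the 5 other SOCS genes, 0 rose and 0 fell by edgeR. At an unadjusted p under 0.05, 1 was higher and 2 lower. Socs4, which had the smallest p of this list, averaged 60.6 ± 4.37 CPM in XKO and 48.7 ± 7.88 CPM in XWT cells (SD, n = 3 each; adjusted p = 0.0602, edgeR), and DESeq2 called it (adjusted p = 0.0343). Socs4 also passed without XWT 3 (adjusted p = 0.00256, edgeR), where 1 gene of the list fell. Its log2 fold change of 0.32 was 0.10 with length and GC trends removed (adjusted p = 0.317, edgeR) and 0.21 without XWT 2 (adjusted p = 0.181, edgeR). Of 12 other negative regulators, such as phosphatases and PIAS proteins, 0 rose and 0 fell by edgeR or DESeq2; 2 were higher and 2 lower at an unadjusted p under 0.05. Usp18, an inhibitor at the type I interferon receptor, averaged 49.8 ± 2.64 CPM in XKO and 42.8 ± 3.8 CPM in XWT cells (adjusted p = 0.0817, edgeR). It passed without XWT 2 (adjusted p = 0.0246, edgeR), and without XWT 3 the list had 1 gene higher and 1 lower.

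Of 18 genes that are partners or targets of STAT2 in the interferon response, all were tested. By edgeR 6 rose and 0 fell, with a median log2 fold change of 0.19, where 6% of all tested genes rose. Rsad2, an antiviral enzyme, stood at 89.8, 86.2 and 96.1 CPM in XKO 1 to 3 and at 72.1, 67.4 and 68.6 CPM in XWT 1 to 3, without overlap (log2 fold change 0.39, adjusted p = 0.0019, edgeR). Mx1, an antiviral GTPase, averaged 53.9 ± 3.19 CPM in XKO and 39.4 ± 7.38 CPM in XWT cells (SD, n = 3 each; adjusted p = 0.0195, edgeR). The other 4 called genes were Isg15, Ifit1, Mx2 and Xaf1, named after their values were seen. With single libraries left out the count was 2 without XKO 1, 3 without XKO 2, 1 without XKO 3, and 3 without XWT 1 or without XWT 2, and Rsad2 passed in each of these. Over all genes the number that rose was also smaller in these leave-outs, 274 to 639, against 860 with all libraries. Mx1 lost its call without XKO 1, XKO 3, XWT 1 or XWT 2 (adjusted p between 0.0614 and 0.0896, edgeR), at log2 fold changes of 0.37 to 0.46 against 0.45 with all libraries. Irf9, the DNA-binding partner of STAT2, averaged 99.0 ± 2.53 CPM in XKO and 106 ± 5.13 CPM in XWT cells and did not pass (adjusted p = 0.349, edgeR). No gene of the list was lower at an unadjusted p under 0.05 or by DESeq2.

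Of 13 genes linked to STAT3, all were tested; 3 rose and 2 fell. Il1rn, the secreted antagonist of the IL-1 receptor, stood at 37.9, 37.2 and 38.7 CPM in XKO 1 to 3 and at 27.4, 21.4 and 20.3 CPM in XWT 1 to 3 (log2 fold change 0.72, adjusted p = 0.000387, edgeR). Pim1, a serine-threonine kinase induced by STAT3 and STAT5, averaged 47.3 ± 2.78 CPM in XKO and 33.7 ± 3.58 CPM in XWT cells (SD, n = 3 each; log2 fold change 0.49, adjusted p = 0.00213, edgeR). The groups did not overlap for either gene. The other called genes, named after their values were seen, were Myc, which rose, and Ddit4 and Il4ra, which fell. Myc (adjusted p = 0.0433, edgeR) passed in only 6 of 16 alternatives: it missed with DESeq2 (0.0671), in the authors' deposited table (0.0674), and without XKO 1, XKO 2, XKO 3, XWT 2 or XWT 3 (0.051 to 0.186, edgeR). Ddit4 lost its call without XKO 1, XKO 3 or XWT 2 (adjusted p between 0.0558 and 0.0738, edgeR). The number that fell was 0 without XKO 1 and 1 without XKO 2, XKO 3 or XWT 2, and the number that rose was 7 with length and GC trends removed.

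Of 8 genes linked to STAT5, 7 were tested, 1 rose (Pim1) and 1 fell. Ccnd2, the cell cycle protein cyclin D2, stood at 1.22, 0.942 and 1.08 CPM in XKO 1 to 3 and at 6.16, 5.69 and 5.66 CPM in XWT 1 to 3, a log2 fold change of -2.43 (adjusted p = 8.27e-07, edgeR). Most tested fibroblast and stroma markers were lower in the same libraries, and the part of such cells in the Ccnd2 value was not tested. The list had 2 higher genes without XWT 1, with DESeq2, with limma-voom with or without quality weights, with the replicate block, with no filter, with library size alone and in the authors' deposited table. Of 18 genes linked to STAT6, 13 were tested; 3 rose and 2 fell. Mrc1, the mannose receptor, stood at 59.0, 53.3 and 61.8 CPM in XKO 1 to 3 and at 137, 149 and 135 CPM in XWT 1 to 3 (log2 fold change -1.27, adjusted p = 5.91e-08, edgeR). Chil3, a secreted chitinase-like lectin, stood at 3.25, 3.15 and 3.13 CPM in XKO 1 to 3 and at 1.595, 1.38 and 1.6 CPM in XWT 1 to 3 (log2 fold change 1.06, adjusted p = 0.00277, edgeR). Both genes are used as markers of IL-4 exposure, and they moved in opposite directions. Neutrophils and their precursors also make Chil3, and the neutrophil marker sums given above were higher in the same libraries; their part in the Chil3 value was not tested. Egr2 and Tgm2, named after their values were seen, also rose, and Il4ra fell. The number that fell was 1 without XKO 1 or XKO 2 and 4 without XWT 3. Retnla, another STAT6-linked gene, had 0 counts in all 6 libraries.

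**Figure D5:**
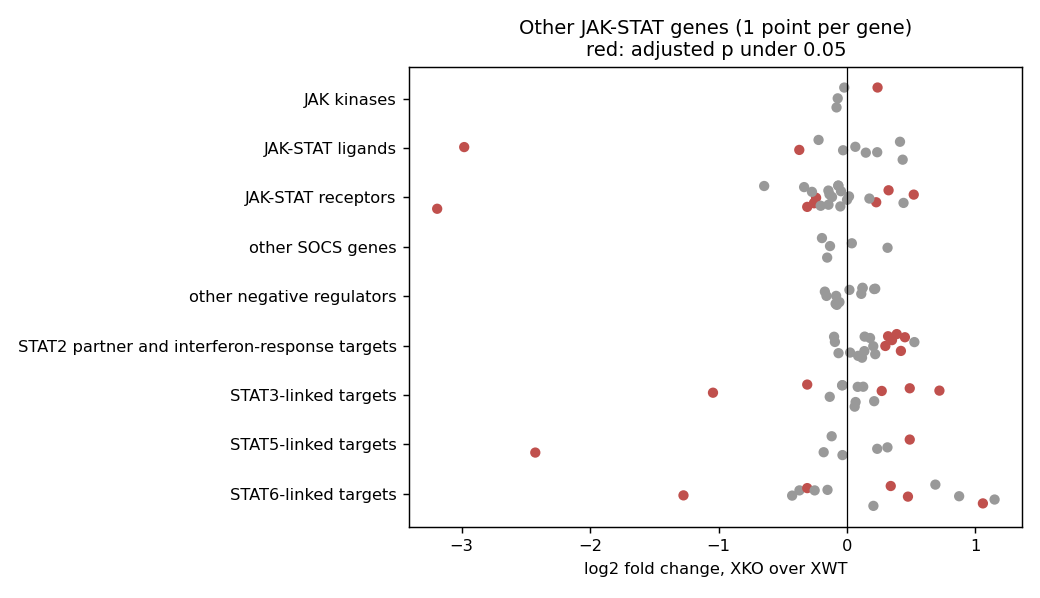
Log2 fold change, XKO over XWT, of each tested gene of the pathway lists (rows), with 1 point per gene and red marking adjusted p under 0.05 by edgeR. All 6 called interferon-response genes lie to the right of 0, and the points farthest to the left are Osmr, Lif, Ccnd2 and Mrc1.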

How the data were processed

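RNA-seq libraries of 6 samples (3 XKO, 3 XWT) were made from 1 ug of total RNA with the NEBNext Ultra RNA kit, per the labels' protocols. The authors deposited raw counts per gene, FPKM values, group means of normalized counts (a signal per group, not used here), log2 fold changes and p-values for each gene, per the file headers. Bowtie 0.12.2 and the builds mm8 and mm10 are named in the submitters' processing notes without a role; the labels and headers name no counting tool, annotation or strand setting. Gene coordinates matched GENCODE M21 (GRCm38) for 98.3% of IDs and for 9 of 9 of the genes described.

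Counts of all genes were tested with edgeR 4.0.16 (R 4.3.3): filterByExpr, TMM factors, robust quasi-likelihood fit without a block, and Benjamini-Hochberg adjustment over 14333 genes at 0.05. The common biological coefficient of variation was 0.0865 with 4 residual degrees of freedom. CPM values use the TMM-scaled library sizes. Intervals of fold changes are unadjusted 95% intervals, and intervals of summed ratios cover counting error only. The script was tested on simulated counts. Alternatives were other scalings and filters, DESeq2 1.42.0, limma-voom (limma 3.58.1), a replicate block and leaving out each library. Removal of length and GC trends (GC known for 99.9% of tested genes) and the authors' deposited table were added after seeing the data.

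The genes and lists were chosen with earlier results of these data known. Besides the 9 genes and Xbp1, the rule named up to 2 called genes of smallest p per list (or the 1 of smallest p). It also named the 3 genes with an established symbol most correlated with the called gene of largest change. Replicate numbers were not treated as pairs in the main fit.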

Additional observations from a re-analysis of the deposited data

How the results depend on the processing

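Socs3 passed in 16 of 16 alternatives, with a log2 fold change of 0.46 to 0.65 and an adjusted p of 1.68e-05 to 0.0175 over the tools used (edgeR, DESeq2, limma-voom). The count of the 9 genes that rose was 1, and 2 under scaling by library size alone, the stricter filter of 5 CPM in 3 libraries, DESeq2, limma-voom, removal of length and GC trends, and the authors' deposited table; the added gene was Stat2 each time. Leaving out single libraries gave 1 to 2 that rose and 0 to 1 that fell (Stat3, without XWT 3). Over all genes, 860 rose and 1145 fell; leave-outs gave 274 to 2073 and 532 to 2164, length and GC removal 1480 that rose, library size alone 749 and the stricter filter 730 that fell. The sign turned for Stat3 (0.0368), Stat5a (0.0156) and Stat6 (0.0167) with length and GC trends removed, and for Stat4 under library size alone (0.0522), the replicate block (0.0014) and leave-outs (-0.1906 to 0.2839). It also turned for Cish under leave-outs (-0.0337 to 0.5047). The cause of these shifts was not tested. Among alternatives for the other named genes, 430 kept both sign and side of the threshold, 84 lost the call and 9 gained it.

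With the replicate number as a block, 1 of the 9 genes rose and 0 fell, and 1068 genes rose and 1127 fell overall. Deviations of log2 CPM from each group's mean correlated at -0.04, -0.04 and -0.05 between same-numbered samples. None correlated best with its own number, but the highest value with another number was only 0.02 to 0.04. With values this small, the check cannot decide whether samples were prepared in pairs. Stat4, Cish and Socs1, with at most 93 counts in a library, had standard errors of 0.22 to 0.38 on the log2 scale, against 0.06 to 0.08 for the other 6 genes.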

Other observations

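Cd4, the T cell co-receptor that some macrophages also carry, was chosen after its values were seen: it was the 1 tested gene of 11 T and NK cell markers. It averaged 2.16 ± 0.178 CPM in XKO and 4.08 ± 0.0341 CPM in XWT cells (SD, n = 3 each), a log2 fold change of -0.92 (adjusted p = 0.00303, edgeR). Cd3d, Cd3e, Cd8a, Ncr1 and Gzma had 0 counts in all 6 libraries.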
